A study of Bos taurus with 90 samples.

Results

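The mural granulosa cells (MGCs) and the cumulus cells (CCs) of the same large antral follicle were compared in cattle (Bos taurus). Every MGC library and every CC library labelled as coming from a large follicle was taken, which gave 10 MGC and 10 CC libraries, 20 of the 90 libraries of the series. The follicle number in the library titles joined them into 10 pairs. The follicles are called L1 to L10 in order of diameter, which ran from 9.6 mm in L1 to 11.6 mm in L10. They came from untreated ovaries collected at a slaughterhouse and had passed a visual check for atresia, the degeneration by which most follicles end. MGCs were peeled from the follicle wall and sequenced as standard bulk libraries, whereas a small pool of the CCs lying tightly on the oocyte was lysed directly and amplified by SMART-seq2, a full-length cDNA protocol for very small inputs. Cell type and library protocol therefore went together in every pair and cannot be told apart. In such pooled samples, fewer cells of a kind and less RNA per cell cannot be told apart either. The labels do not tie follicles to animals, so the p-values below measure the spread between follicles, some of which may share an animal.

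MGCs and CCs descend from one granulosa cell population and part when the antrum, the fluid-filled cavity, forms. MGCs line the wall next to the basement membrane, respond to gonadotropins and make most of the follicle's oestradiol. CCs surround the oocyte, feed it through gap junctions at the tips of transzonal projections, and are held in the cumulus state by growth factors that the oocyte secretes.

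The deposited counts were given per Ensembl gene identifier. No table used here pairs these identifiers with gene symbols, so known markers of mural, cumulus, theca, endothelial and blood cells were not examined, the labelled cell types were not checked against such markers, and genes are described by their levels and groups, with 4 identifiers given as examples.

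Total counts ran from 30589555 to 37626999 in the MGC libraries and from 17076271 to 40180192 in the CC libraries. Levels are given as CPM, the count of a gene scaled to the column total of its library, which sets every library to the same sum. More genes reached 1 CPM in the MGCs than in the CCs of every follicle. The number was 12635 ± 535 (SD, n = 10) in MGCs, from 11588 to 13259, and 11750 ± 270 (SD, n = 10) in CCs, from 11182 to 12155. The mean difference within a follicle was 885 ± 327 genes (SD, n = 10 pairs), with an exact two-sided sign-flip permutation p of 0.00195, the smallest that 10 pairs allow. After every library was thinned to the smallest total, the difference was 878 genes, again with the MGCs higher in 10 of 10 follicles. Genes with any count were more numerous in MGCs by 835, higher in 8 of 10 follicles (exact permutation p = 0.0391), but by 657 and in 7 of 10 follicles after thinning (exact permutation p = 0.105). The 50 most abundant genes took 24.4% ± 5.0 of the counts in MGCs and 25.2% ± 2.2 in CCs (SD, n = 10 each), a difference within the spread of the follicles (exact permutation p = 0.613).

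One MGC library stood apart from the rest. Spearman's rank coefficient between 2 libraries was taken over the 12449 genes tested below, as a description. Between MGC libraries it ran from 0.726 to 0.967 with a median of 0.899, between CC libraries from 0.806 to 0.960 with a median of 0.904, and between an MGC and a CC library from 0.504 to 0.805 with a median of 0.657. The MGC library of L6 had a median coefficient of 0.809 with the other MGC libraries, below the 0.884 to 0.931 of the other 9, and it held the fewest genes at 1 CPM. Without it, the coefficient between MGC libraries ran from 0.822 to 0.967 with a median of 0.917. The CC library of L6 also held the fewest genes at 1 CPM of the CC libraries, 11182. Its median coefficient with the other CC libraries, 0.870, lay within the range of the rest, 0.867 to 0.918. Values without L6 are given below beside the counts, limits and folds that it moves most.

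The transcriptomes of the follicle wall and of the cumulus differed at about every other expressed gene. Of 27270 genes in the table, 24036 had a count in these libraries and 12449 were tested, being above 1 CPM in at least 8 libraries of either cell type. With edgeR's quasi-likelihood test and follicle as a block, 6283 genes (50.5% of those tested) differed by more than 2-fold at a Benjamini-Hochberg adjusted p under 0.05. Of these, 3445 (27.7%) were higher in MGCs and 2838 (22.8%) were higher in CCs. The count was 6327 without L6, with 3471 higher in MGCs and 2856 higher in CCs. Without the limit on the fold change, 7878 genes passed. The plot of mean levels shows both groups spread over the whole range of abundance.

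**Figure D1:**
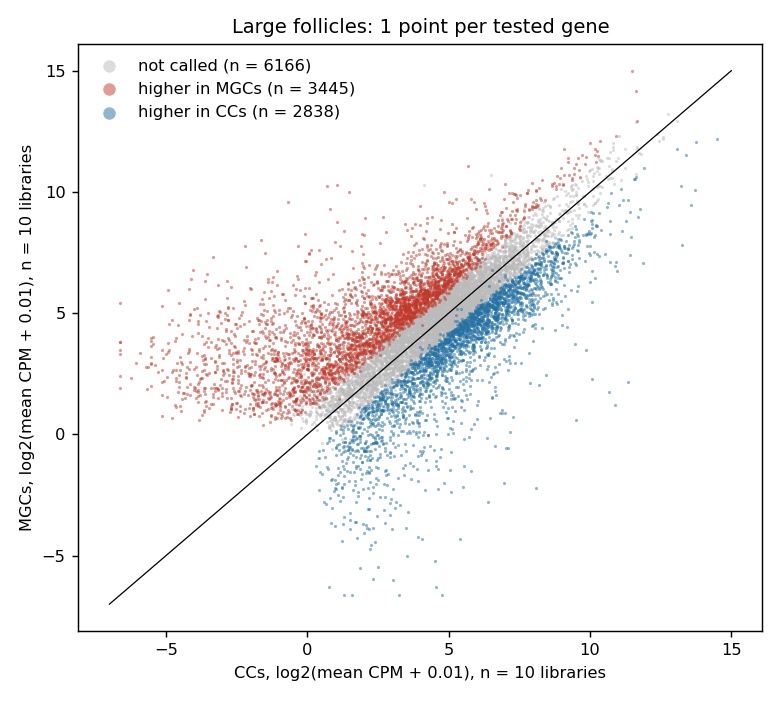
Mean level of each of the 12449 tested genes in the 10 MGC libraries (vertical axis) and the 10 CC libraries (horizontal axis) of large follicles, both as log2(mean CPM + 0.01). Red points are the 3445 genes called higher in MGCs, blue points the 2838 called higher in CCs, grey points were not called, and the line marks equal levels. Many genes higher in MGCs lie far to the left, at CC levels near 0, and fewer genes higher in CCs lie equally far down.

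At the scaling used, the genes higher in MGCs differed by larger factors than those higher in CCs. Their median log2 fold change was 2.15, a 4.44-fold difference. For the genes higher in CCs it was 1.83 in absolute value, a 3.55-fold difference. The median absolute log2 fold change of all genes tested was 1.08. With its sign, that median was 0.14 toward MGCs, and 0.33 with column totals. The gap between the medians of the 2 groups is to be read against that shift. Over 16-fold differences were reached by 727 of the genes higher in MGCs (21.1% of them) and by 232 of those higher in CCs (8.17%). Over 64-fold differences were reached by 332 and 81 genes. Few genes were restricted to one cell type in the sense of having no count in any library of the other, namely 7 genes higher in MGCs and 4 genes higher in CCs. A stricter pattern, over 1 CPM in all 10 libraries of one type and under 0.1 CPM in all 10 of the other, was met by 1 gene in each direction with all follicles, but by 15 genes higher in MGCs and 3 higher in CCs once L6 was left out. Leaving out another follicle gave 1 or 2 genes higher in MGCs and 1 to 3 higher in CCs.

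The direction held follicle by follicle for most of these genes, which their choice from the same pairs partly fixes. Among those higher in MGCs, 2295 (66.6%) were higher in the MGCs of all 10 follicles, 926 in 9, 205 in 8 and 19 in fewer. Among those higher in CCs, 1711 (60.3%) were higher in the CCs of all 10 follicles, 750 in 9, 317 in 8 and 60 in fewer. A full separation of the groups was less frequent. All 10 MGC libraries lay above all 10 CC libraries at 1070 genes (8.6% of those tested), of which 1030 were called, and all 10 CC libraries lay above all 10 MGC libraries at 1030 genes (8.27%), of which 1026 were called. Without L6 the separated genes numbered 1694 (13.6%) with the MGCs above and 1294 (10.4%) with the CCs above, whereas leaving out another follicle gave 1095 to 1247 and 1046 to 1189.

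The balance of directions changed with abundance. Each gene was placed by its higher mean of the MGC and the CC group. MGCs were the higher side at 63.9% of the called genes between 1 and 10 CPM and at 57.6% of those between 10 and 100 CPM. They were the higher side at 38.4% between 100 and 1000 CPM and at 44.3% above 1000 CPM. With library sizes set by the column totals alone, these shares were 69.0%, 66.2%, 44.9% and 51.2%, so the side in the majority above 1000 CPM turned with the scaling. The median log2 fold change of all genes tested, MGCs over CCs, was 0.14 with the TMM factors used here, 0.23 with DESeq2's size factors and 0.33 with column totals, and the fold changes are to be read against that shift. The share of genes called was 51.6%, 47.6%, 57.9% and 59.6% from the lowest to the highest class.

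Abundant genes carried more of the CC-higher set. A mean above 100 CPM in the higher cell type was reached by 855 of the genes higher in CCs and by 545 of those higher in MGCs, and a mean above 1000 CPM by 64 and 51. The CC-higher genes held a median of 43.2% of the counts of a CC library (40.8% to 54.6%) and 11.3% of those of an MGC library (10.1% to 17.3%). The MGC-higher genes held a median of 37.7% of the counts of an MGC library (26.5% to 43.3%) and 10.0% of those of a CC library (5.57% to 11.4%). Neither pair of ranges overlapped, which the choice of the genes from the same libraries fixes.

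The most abundant transcripts were partly shared. Of the 50 genes with the highest mean in MGCs, 23 were also among the 50 highest in CCs. Among the 50 of the MGCs, 20 were called higher in MGCs, 4 were called higher in CCs and 26 were not called. Among the 50 of the CCs, 28 were called higher in CCs, 4 were called higher in MGCs and 18 were not called.

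For 4571 of the genes tested the adjusted p was 0.05 or more. The 95% interval of the fold change stayed within 2-fold in either direction for 2077 of them, so a difference over 2-fold lay outside the interval there, and it reached beyond 2-fold for the other 2494. Over all genes tested, 2256 (18.1%) had an interval within 2-fold. Expression varied more between follicles in CCs than in MGCs. At the 7310 genes with a mean of at least 10 CPM in both cell types, the median SD of log2(CPM + 1) over the 10 follicles was 0.43 in MGCs and 0.65 in CCs, and the SD was larger in CCs at 73.0% of them. Cell type and protocol cannot be told apart in this spread either.

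The follicles differed in the size of the contrast. The number of genes over 2-fold within a follicle, on the scale of log2(CPM + 1), ran from 5489 in L2 to 7487 in L7. The MGC side held more of these genes than the CC side in all 10 follicles, from 2901 against 2588 in L2 to 4988 against 2499 in L7. This scale has no TMM factors. On it the median difference of all tested genes, MGCs minus CCs, ran from -0.03 in L2 to 0.54 in L7, against which the counts are to be read. L7, L8 and L9 formed the upper end and L2 the lower.

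**Figure D2:**
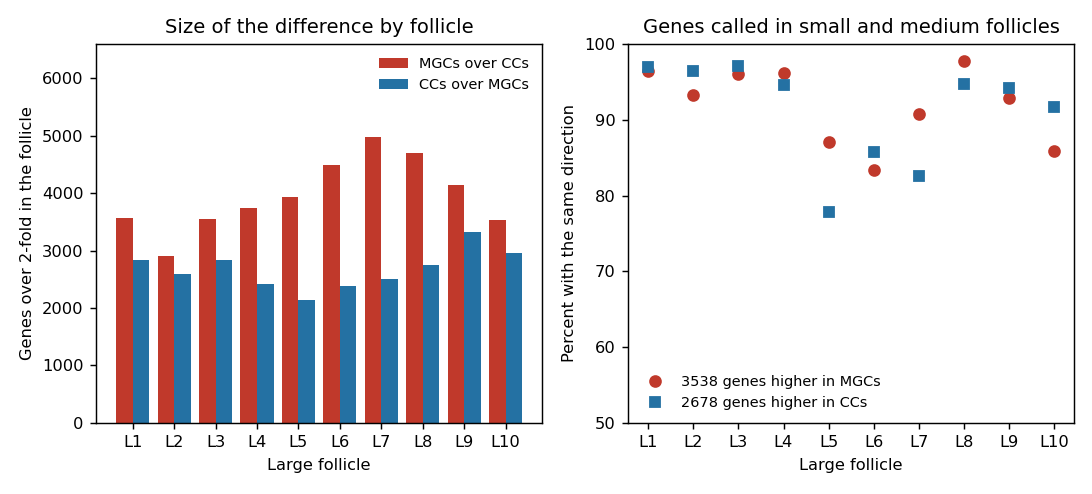
Left, number of tested genes over 2-fold higher in MGCs (red bars) and in CCs (blue bars) in each large follicle. Right, percent of the genes called in small and medium follicles that had the same direction in each large follicle, for 3538 genes higher in MGCs (red circles) and 2678 genes higher in CCs (blue squares), on an axis from 50% to 100%. All 10 follicles show more genes higher in MGCs, and L5, L6, L7 and L10 show the lower shares on the right.

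The contrast of large follicles was then read through genes chosen in other follicles. Small and medium follicles, 8 of each with both cell types, were fitted in the same way, and 4009 genes (29.9% of 13395 tested) were higher in MGCs there and 2906 (21.7%) higher in CCs. Of the 4009 genes, 3538 were also tested in large follicles, where 2839 (80.2%) were called in the same direction and 3 in the opposite direction. Of the 2906 genes, 2678 were tested in large follicles, where 2135 (79.7%) were called in the same direction and 1 in the opposite direction. Conversely, 82.4% of the genes higher in MGCs and 75.2% of those higher in CCs of large follicles were called in the same direction in small and medium follicles. Untested members numbered 471 and 228, since they did not pass the filter on low values in large follicles. The small and medium follicles had the same protocols for MGCs and CCs, so cell type and protocol cannot be told apart in this agreement either. Some of these follicles share the first 3 digits of their number with large follicles, and the labels do not say what these digits mean.

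In single large follicles, between 83.4% (L6) and 97.8% (L8) of the 3538 MGC genes were higher in the MGCs, and between 77.9% (L5) and 97.1% (L3) of the 2678 CC genes were higher in the CCs. The median log2 difference of the MGC genes ran from 1.27 in L10 to 2.30 in L8, and that of the CC genes from -0.91 in L5 to -1.83 in L9. L10 and L5 thus had the smallest median difference on the MGC side, and L5 on the CC side.

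Genes high in MGCs and near 0 in CCs of smaller follicles, whatever their oocyte level, were next followed through the libraries. A mural set of 70 genes had a mean of at least 10 CPM in the MGCs and under 0.1 CPM in the CCs of small and medium follicles. In large follicles its summed level was 340 CPM in the lowest MGC library (L6), 1812 at the median and 4045 in the highest (L1). In the CC libraries the sum was 1.49 CPM in the lowest (L8), 6.65 at the median and 26.7 in the highest (L4). The groups did not overlap, and within a follicle the MGC sum exceeded the CC sum by 28.3-fold in L6 to 807-fold in L8, with a median of 144-fold. Without L6 the lowest MGC sum was 557 CPM, in L10, and the lowest ratio was 110.0-fold, in L5, with a median of 159-fold. The 67 members tested were all called higher in MGCs, with a median log2 fold change of 8.16, but genes this low in CCs passed the filter through the MGC libraries alone, so this count adds nothing to the sums.

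The reverse set was small. A cumulus set of 12 genes had a mean of at least 10 CPM in the CCs and under 0.1 CPM in the MGCs of small and medium follicles. Its summed level in large follicles was 13.2 CPM in the lowest CC library (L4), 68.8 at the median and 121 in the highest (L5). In the MGC libraries the sum was 0.0583 CPM in the lowest (L9), 0.287 at the median and 0.983 in the highest (L6). The groups did not overlap, and within a follicle the CC sum was 72.5-fold to 1094-fold above the MGC sum. Of the 12 genes, 4 were tested, and 8 did not pass the filter.

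The oocyte libraries of the same follicles held part of the mural set. They were made with the kit used for CCs but with more PCR cycles, and cell type and protocol cannot be told apart in the low levels of the mural set in CCs. Its sum there ran from 163 to 311 CPM with a median of 264, and 21 of the 70 genes had a mean of at least 1 CPM and 8 of at least 10 CPM. Of all MGC-higher genes, 74.9% had a mean of at least 1 CPM in oocytes, against 85.9% of the CC-higher genes and 84.6% of all genes tested. The median oocyte level was 7.15 CPM for the MGC-higher genes and 29.0 CPM for the CC-higher genes.

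Oocyte transcripts in the CC libraries were low. An oocyte set of 173 genes, with a mean of at least 100 CPM in the oocytes and under 1 CPM in the MGCs of small and medium follicles, summed to between 97047 and 120482 CPM in the oocytes of large follicles. In the CCs the sum was 49.4 CPM in the lowest library (L8), 58.2 at the median and 118 in the highest (L2), which was 0.0410% to 0.115% of the sum in the oocyte of the same follicle. In the MGCs it was 16.2 CPM in the lowest library (L6), 35.4 at the median and 53.5 in the highest (L3), so the ranges of CCs and MGCs overlapped. The set was chosen for low levels in the MGCs of small and medium follicles, with no limit on CCs, which can favour a higher sum in CCs. Of the set, 5 genes were tested, of which 4 were higher in CCs and 1 was higher in MGCs. Genes chosen as low in MGCs pass the filter more readily through the CC libraries. The directions of these 5 genes are therefore partly fixed by the choice and add nothing to the sums. Without the set, 6278 genes were called in place of 6283.

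How much an MGC library resembled the CCs depended on the MGC library. The median coefficient of an MGC library with the 10 CC libraries was lowest in L1, at 0.585, followed by L7 at 0.601, L4 at 0.622 and L3 at 0.625. It was highest in L6 and L10, both at 0.755, and L5 at 0.744. Libraries with a high coefficient with CCs had a low mural sum, with 340 CPM in L6, 557 CPM in L10 and 715 CPM in L5 against 4045 CPM in L1, 3456 CPM in L4 and 2476 CPM in L3. The order of the other 4 libraries did not follow the sum exactly, as L2 had a sum of 1971 CPM at a coefficient of 0.709 and L7 one of 2035 CPM at 0.601. The CCs of the same follicle were not the most similar ones as a rule. They were the most similar of the 10 CC libraries for L4 and the least similar for L6.

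**Figure D3:**
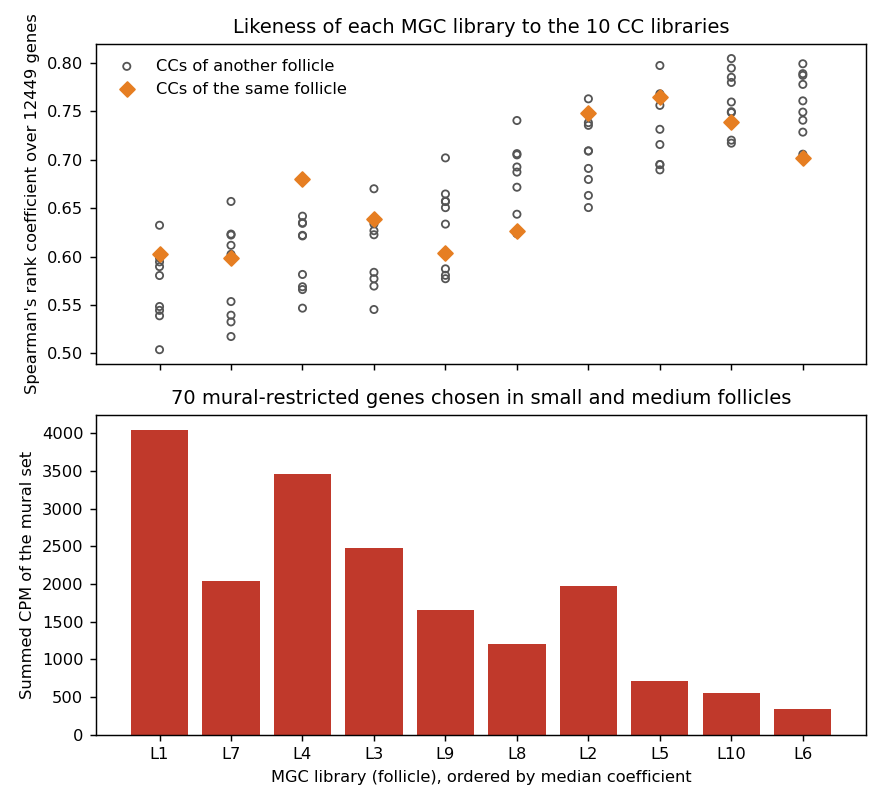
Top, Spearman's rank coefficient over 12449 genes between each MGC library and the 10 CC libraries of large follicles, with the CCs of the same follicle as orange diamonds and those of other follicles as open circles. Bottom, summed CPM of the 70 genes of the mural set in the same MGC libraries, as bars from 0, with the libraries in the order of their median coefficient. The coefficient rises from a median of 0.585 in L1 to 0.755 in L6 while the mural sum is highest in L1 (4045 CPM) and lowest in L6 (340 CPM).

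Identifiers were taken as examples by a rule, the largest fold changes in each direction among called genes with an average log2 CPM of at least 4 and the same direction in all 10 follicles. The rule fixes the direction of the examples in all 10 follicles and an adjusted p under 0.05. ENSBTAG00000008483 was an MGC gene. Its level in MGCs was 0.106 CPM in the lowest library (L6), 30.8 at the median and 122 in the highest (L1), and it had no count in any of the 10 CC libraries or the 10 oocyte libraries. The other 9 MGC libraries lay at 12.7 CPM or above. Against a floor of 3 counts over all CC libraries together, the MGC mean of 42.4 CPM was 3889-fold higher (edgeR adjusted p = 2.33e-05). That floor takes counts as independent, whereas counts here were even more often than odd. The fold is therefore not a firm lower limit.

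ENSBTAG00000012066 had a similar distribution. Its MGC level was 0.0532 CPM in the lowest library (L6), 61.5 at the median and 129 in the highest (L4), and its CC level was 0 in 9 libraries and 0.228 CPM, or 4 counts, in L5. The ranges overlapped through L6 alone, where 2 counts were recorded in the MGCs. The log2 fold change was 11.50 (SE 0.76, edgeR adjusted p = 1.47e-07), and 11.51 without L6. The MGCs were higher in 10 of 10 follicles, which the rule required, in L6 by 2 counts against 0. The fold itself rested on the 4 counts of L5, since the log2 fold change was 13.94 without L5, and it ran from 9.74 in the 4 follicles called healthy to 14.16 in the other 6, with an adjusted p of at most 0.000658.

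ENSBTAG00000008452 was the opposite case, with a high level in every CC library. It reached 786 CPM in the lowest CC library (L5), 1391 at the median and 3846 in the highest (L2). In MGCs it was at 0 in 4 libraries, at 0.0854 CPM at the median and at 18.8 CPM in the highest (L6). The groups did not overlap, with a log2 fold change of -13.05 (SE 1.25, edgeR adjusted p = 1.75e-06), and -13.59 without L6. Without the follicle block the log2 fold change was -9.76, and over all alternatives it ran from -14.06 to that value, with adjusted p-values up to 0.000838. In the MGCs of small and medium follicles it was less uniformly low, with a median of 11.2 CPM and a highest value of 513 CPM.

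ENSBTAG00000002555 was also higher in CCs, at a lower level. Its CC level was 19.7 CPM in the lowest library (L4), 242 at the median and 771 in the highest (L9), and its MGC level was 0 in 4 libraries, 0.0640 CPM at the median and 0.930 CPM in the highest (L6). The groups did not overlap, and the log2 fold change was -10.95 (SE 0.68, edgeR adjusted p = 1.24e-07), and -11.26 without L6. In all 4 examples the MGC library of L6 was the one nearest to the CC level. At the median, oocytes of large follicles had 1.54 CPM of ENSBTAG00000008452 and 0.0459 CPM of ENSBTAG00000002555.

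**Figure D4:**
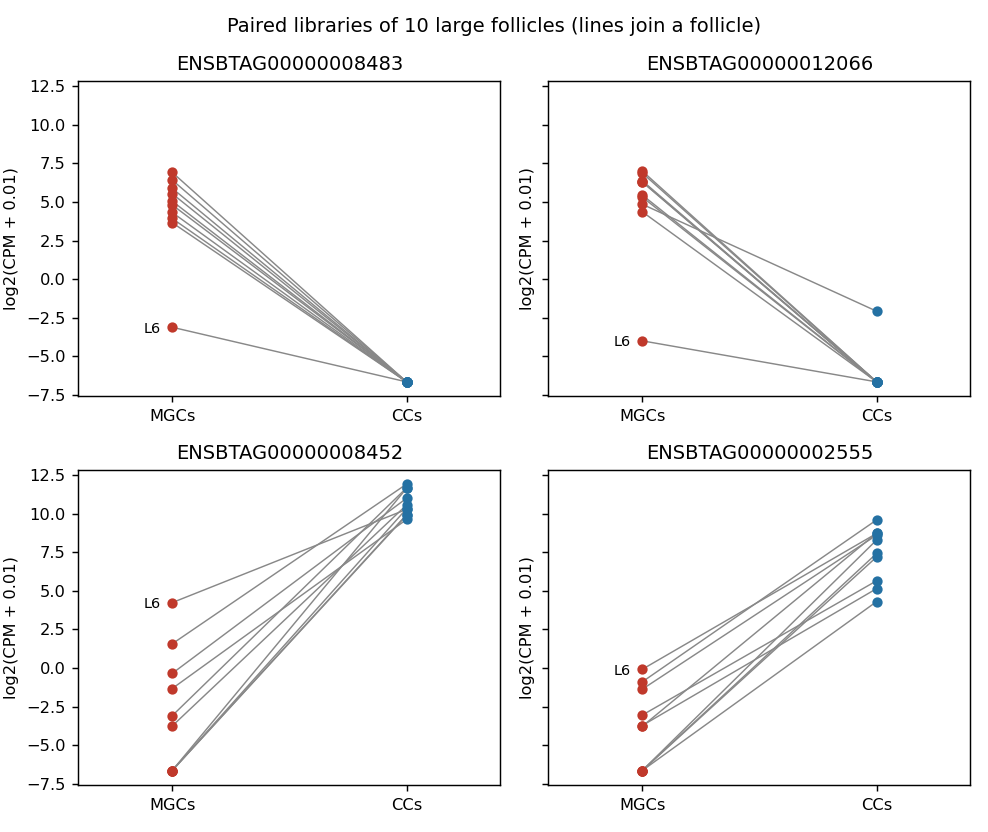
Levels of the 4 example identifiers in the MGC (red) and CC (blue) libraries of the 10 large follicles, as log2(CPM + 0.01), with a line joining the libraries of a follicle and the MGC library of L6 marked. The lowest points stand for a count of 0, and in each panel the L6 MGC point is the one nearest to the CC points' level.

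Whether the contrast of MGCs and CCs in large follicles differed from that in smaller ones was tested as an interaction over 26 follicles. Of 12619 genes tested, 41 (0.325%) had a log2 fold change that differed by more than 1 between large follicles and the mean of small and medium follicles (edgeR, adjusted p under 0.05), while 1155 passed an unadjusted p under 0.05 with the same fold limit. The shift was toward the CC side at 30 genes and toward the MGC side at 11. At the 30 genes the median log2 fold change moved from -0.12 (small follicles) through -0.89 (medium) to -2.36 (large). At the 11 genes the same medians were -0.01, 0.49 and 1.45. The difference between the cell types was larger in large follicles at 25 genes, smaller at 4, and turned its sign at 12. The genes were called on this shift, which partly fixes these medians and counts. The step from small to medium follicles was not tested. Among the genes called in large follicles, 29 of the 41 were higher in CCs, 6 were higher in MGCs, and 6 were not called. The median absolute interaction over all genes tested was 0.48 on the log2 scale, against a median absolute fold change of 1.08 within large follicles.

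**Figure D5:**
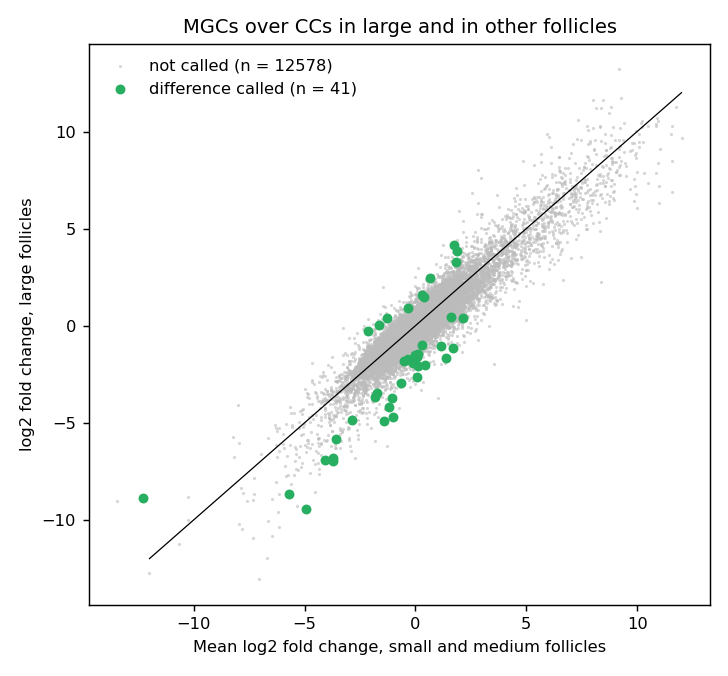
Log2 fold change of MGCs over CCs in large follicles (vertical axis) against the mean of those in small and medium follicles (horizontal axis), 1 point per tested gene, from 1 model over 26 follicles. Green points are the 41 genes whose difference was called, 30 of them shifted toward the CC side (lower) and 11 toward the MGC side, and the line marks equal fold changes.

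This count of interactions depended on the model and on single follicles. It was 102 without the follicle block, 638 with DESeq2 and 18 with column totals. The fit with all 30 follicles added back those that the study removed and also small follicle S7, whose CC column is incomplete. With that fit the count was 0, with 600 at an unadjusted p under 0.05. It was 101 without L6, 11 without L9, 17 without L7, 18 without L8, 20 without L4, 23 without L10 and 24 without L5. None of the 4 example identifiers was called, with log2 interactions of 3.99 for ENSBTAG00000008483, 3.15 for ENSBTAG00000012066, -6.00 for ENSBTAG00000008452 and -3.62 for ENSBTAG00000002555 (edgeR adjusted p = 0.305, 0.216, 0.0807 and 0.116). For ENSBTAG00000008452 the adjusted p was 0.0341 without L6, in a range from 1.74e-06 with DESeq2 to 0.53 with all 30 follicles, and for ENSBTAG00000002555 it ran from 0.00209 with DESeq2 to 0.826.

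Follicles that the study set apart by health were compared in the same way. In the 4 large follicles that it called healthy from their MGCs (L5, L8, L9 and L10), 5463 genes were called between MGCs and CCs, 2850 higher in MGCs and 2613 higher in CCs. In the other 6, 5286 were called, 2942 higher in MGCs and 2344 higher in CCs. Of the genes called in all 10 follicles, 4891 were called in the 4 and 5051 in the 6, all in the same direction. The 4 and the 6 are parts of the 10, which partly fixes this, and they were not set against each other. Whether a difference between the cell types differed with follicle health was not tested.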

How the data were processed

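The authors deposited 1 table of raw counts per gene, with a column for each library. Paired-end reads were aligned to the ARS-UCD1.2 build. The submitters' processing notes name HISAT2 2.2.1 and featureCounts (Subread), while the study's methods name STAR, and which aligner made the counts was not settled. Counts of 1 to 20 were even more often than odd, in 59.5% to 65.9% of MGC and 61.8% to 76.7% of CC values. Both lowest shares were those of L6, and the other CC libraries lay at 70.6% or above. No molecular identifiers were used, so the floor of 3 counts covers counting error only, and that only if counts are independent.

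All 90 columns matched a title in the labels. Libraries were paired by the follicle number, which gives the pairing because both cell types came from 1 follicle. As a check, deviations of MGCs and CCs of a follicle from their group means correlated between -0.08 and 0.20 (median 0.08, over 0.1 in 4 of 10), against a median of -0.01 between follicles. Values between follicles reached 0.22 (MGCs of L7 with CCs of L3). Only 2 of 10 CC libraries were best matched by their own MGCs, and 4 of 10 MGC libraries by their own CCs. The pairing therefore rests on the titles.

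Genes above 1 CPM in at least 8 libraries of either cell type were tested with edgeR 4.0.16 (glmQLFit and glmQLFTest, TMM factors, R 4.3.3), with follicle as a block, and called at an absolute log2 fold change above 1 and an adjusted p under 0.05. Standard errors were taken as the fold change divided by the square root of F, and 95% intervals from the t quantile. The interaction was fitted over the follicles the study kept, without small follicle S7, whose CC column has counts in the first rows of the table only. Gene numbers were compared by exact permutation (scipy 1.17.1). Alternatives used DESeq2 1.42.0, limma 3.58.1, other scalings, filters and subsets of follicles. The scripts were tested on simulated data.

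The example identifiers follow the fallback of the naming rule for data without symbols, which is the 2 largest fold changes in each direction. Planned lists of symbols, markers included, were not used here. The comparison, the lists and the rules were chosen with earlier results of these data known, and the mural, cumulus and oocyte sets were defined after the values of the small and medium follicles were seen.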

Additional observations from a re-analysis of the deposited data

Results flagged for a closer look

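Over 21 groups of 10 values, 5 had a value that stood apart from the other 9 by Dixon's test, which by chance marks about 1 group in 20. Follicle L6 gave 4 of the 5. Its log2(CPM + 1) difference between MGCs and CCs was 0.15 for ENSBTAG00000008483 and 0.075 for ENSBTAG00000012066, where the other follicles lay at 3.78 or above and 4.44 or above. For ENSBTAG00000008452 it was -5.97, where the others lay at -9.15 or below. The median Spearman's rank coefficient of the L6 MGC library with the other MGC libraries was 0.809. The fifth was the number of genes with a count in the CCs of L7, which was 18588 against 15094 to 16921 in the other CC libraries, although L7 had one of the lowest totals, 17302152 counts.

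The contrast of MGCs and CCs differed between large follicles and the others at 41 genes by the interaction test. This count depended on the model. It was 638 with DESeq2 and 0 with all 30 follicles, among them S7 with its incomplete CC column.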

How the results depend on the processing

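The count of 6283 genes stayed within 1.5 times of itself, in total and in each direction, under 23 alternatives, between 4886 and 8018, and no gene called in both the reported fit and an alternative had the opposite sign. Leaving out each follicle in turn gave 5995 to 6372 genes. Without the follicle block, 6160 genes were called (3207 higher in MGCs and 2953 higher in CCs), the interaction count was 102, and the 4 identifiers stayed called without this pairing, although the log2 fold change of ENSBTAG00000008452 became -9.76. The interaction count of 41 also became 18 with column totals and 638 with DESeq2. It was 0 with all 30 follicles, among them S7 with its incomplete CC column, and ran from 11 to 101 when each large follicle was left out. The causes were not tested. The excess of 657 genes with a count in MGCs after thinning no longer passed (exact permutation p = 0.105). Alternatives chosen after seeing the data were the exclusion of the oocyte set (6278 genes), a mean of at least 10 CPM (4886), the 6 follicles not called healthy (5286), limma with sample weights (6376) and the counts of separated genes without each follicle (1095 to 1694 with the MGCs above, 1046 to 1294 with the CCs above). Summing follicles whose numbers share their first 3 digits left 6 pairs and 5708 genes. Levels near 0 rest on few reads, with 2 to 4 counts in the lowest libraries of the MGC examples.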
